A study of Sus scrofa with 55 samples.

Results

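Maternal-effect genes are transcribed while the oocyte grows, and their products are used after fertilization, before the embryo's own genome is active. Some of their proteins form the subcortical maternal complex, an assembly beneath the oocyte membrane that in the mouse is needed for the cleavages of the early embryo. Others store maternal RNA or protect and remodel chromatin in the zygote. The genes described here were taken by symbol from the count table of the study: the complex members NLRP5, NLRP2, OOEP, TLE6 and PADI6, and the maternal-effect genes NPM2, ZAR1 and DPPA3. Of these 8, 3 were matched: OOEP (ENSSSCG00000004285), PADI6 (ENSSSCG00000003484) and ZAR1 (ENSSSCG00000008824). NLRP5, NLRP2, TLE6, NPM2 and DPPA3 were not matched by symbol among 25880 gene IDs, of which 14857 had a symbol, and were not analysed here. OOEP is a small KH-like domain protein of the complex, PADI6 is a peptidylarginine deiminase family protein needed for the lattices in the mouse, and ZAR1 is a zinc-finger protein that binds maternal mRNA. No sequence or gene position is given, because the genome build is not given in the sources used here.

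The libraries were Smart-seq2 cDNA, a full-length single-cell protocol, from the cytoplasmic RNA of 55 single wild-type oocytes of pubertal Landrace and Yorkshire gilts (young female pigs) aged 208 to 210 days. All gilts had received pregnant mare serum gonadotropin (5 IU), which stimulates follicle growth, so no untreated group exists. They represent 5 antral follicle stages: stage 1 gave 11 oocytes, stage 2 gave 12, stages 3 and 4 gave 11 each and stage 5 gave 10. Gilt 803 gave 20 oocytes, gilt 201 gave 14, gilt 205 gave 9 and gilt 801 gave 12, none of them at stage 5. The animal is the replicate, so stages rest on 4 gilts (3 at stage 5). Gilt is in the model, so the p-values of the stage comparisons rest on how far stage differences vary from gilt to gilt. Each gilt and stage holds 1 to 4 oocytes, so the spread between single oocytes is part of this. Where gilt 803 is set against the others it is 1 animal, with the sums of its 5 stages in place of replicates, so p-values there do not measure spread between animals. The depth of a library lay between 151104 and 38282850 counts (median 12139540).

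The oocyte label was checked against ZP2, ZP3 and ZP4, which encode the egg coat, and the oocyte growth factors GDF9 and BMP15. Their summed level spanned 12.5 to 15058 CPM (the share of a library's counts, scaled to a fixed total) in gilt 803, where its median was 853 CPM, against 81.99 to 54480 CPM and a median of 18342 CPM in the other gilts. The summed level of the 19 measured granulosa and cumulus cell markers ran from 29.1 to 30465 CPM in gilt 803, with a median of 6104 CPM, against 19.3 to 11747 CPM and a median of 161 CPM in the other gilts. Of these 19 markers, 11 had a higher median in gilt 803, and 7 had a median of 0 there, as did 7 in the other gilts; FOXL2 and CYP19A1 were not matched. The theca marker list had a median of 215 CPM in gilt 803 (highest 2514 CPM), against 20.4 CPM in the other gilts (highest 5560 CPM). The blood cell list had a median of 20.2 CPM in gilt 803 (highest 11380 CPM), against 4.79 CPM in the other gilts (highest 456 CPM). In 15 libraries the granulosa counts exceeded the oocyte marker counts: 14 of these came from gilt 803 and 1 from gilt 801. They are called granulosa-rich below, by this ratio alone. One of them, oocyte 3 of gilt 803 at stage 2, had 203 CPM of granulosa and 159 CPM of oocyte markers beside 11380 CPM of blood markers. Among the libraries outside the class, oocyte 1 of gilt 801 at stage 3 had 11124 CPM and oocyte 4 of gilt 803 at stage 1 had 9885 CPM of granulosa markers. The medians and fitted differences that the account turns on are given with and without this class, and the part of the other cell types in them was not tested. Whether the granulosa-rich libraries are oocytes with adhering cumulus cells could not be told from the labels. They still held PADI6, which was counted in 55 of 55 libraries. The mitochondrially encoded share of counts had a median of 11.5% in gilt 803 and 82.8% in the other gilts. Since CPM is a share, less of a transcript and more of other RNA in the library cannot be told apart. No pair of libraries held identical values.

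The 3 transcripts were present at every stage. At stage 1, OOEP ran from 0 to 563 CPM with a median of 25.6 CPM over 11 oocytes. At stage 2 it ran from 0 to 1190 CPM (median 64.2 CPM), and at stage 3 from 4.27 to 157 CPM (median 88.6 CPM). At stage 4 it ran from 0 to 1589 CPM (median 62.8 CPM), and at stage 5 from 0 to 206 CPM (median 24.7 CPM). The ranges overlapped at all stages, and the median was highest at stage 3 and lowest at stage 5. As means of gilt means, OOEP was 171 ± 262.7, 176 ± 141.6, 89.8 ± 29.3 and 209 ± 276 CPM over stages 1 to 4 in turn (SD, n = 4 gilts each) and 50.6 ± 56.7 CPM at stage 5 (SD, n = 3 gilts). In order of these means the stages ran 4, 2, 1, 3 and 5, and no neighbours in that order were further apart than the larger of their SDs. These SDs hold the differences between gilts, and the same gilts gave the other stages. This reading, here and for the genes below, is therefore a description and not a test of stage. Without the granulosa-rich libraries the OOEP medians were 37.3, 65.5, 94.9, 108 and 51.7 CPM at stages 1 to 5.

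**Figure D1:**
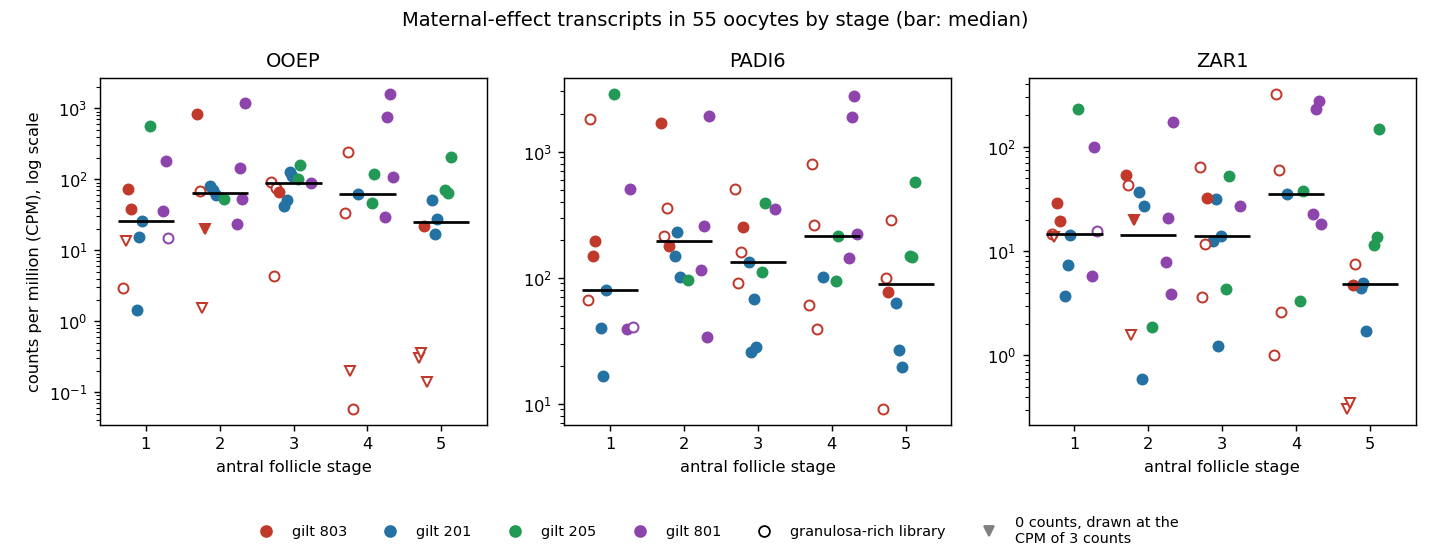
CPM of OOEP, PADI6 and ZAR1 in each of 55 oocytes (log y axis) against antral follicle stage (x axis), coloured by gilt, with a bar at the stage median, open symbols for granulosa-rich libraries and downward triangles for libraries with 0 counts, drawn at the CPM of 3 counts. Points of every stage overlap those of every other stage for each gene, and the OOEP triangles at 0 counts all belong to gilt 803.

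PADI6, the other member of the complex that was measured, was counted in every oocyte. At stage 1 it ran from 16.7 to 2864 CPM with a median of 80.5 CPM. Its medians were 196 CPM at stage 2 (range 33.5 to 1916), 132 CPM at stage 3 (25.5 to 506), 216 CPM at stage 4 (39.2 to 2776) and 88.3 CPM at stage 5 (9.07 to 579). The widest range was at stage 1, where gilt 205 gave a single oocyte of 2864 CPM. The means of gilt means were 916 ± 1317, 361 ± 271, 229.9 ± 120.4 and 450.1 ± 541 CPM over stages 1 to 4 in turn (SD, n = 4 gilts each) and 149 ± 130.3 CPM at stage 5 (SD, n = 3 gilts). These means ran in the order 1, 4, 2, 3 and 5, with neighbours closer than the larger of their SDs. With the granulosa-rich libraries left out the PADI6 medians were 114, 164, 122, 216 and 77.4 CPM at stages 1 to 5.

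ZAR1, which in the mouse is needed for maternal mRNA storage and for passage through the zygote stage, was read on the same scale. Its medians were 14.6 CPM at stage 1 (range 0 to 232), 14.3 CPM at stage 2 (0 to 173) and 14.05 CPM at stage 3 (1.24 to 64.3). They were 35.3 CPM at stage 4 (1.00 to 320) and 4.80 CPM at stage 5 (0 to 149). The stages again overlapped, with the highest median at stage 4 and the lowest at stage 5. The means of gilt means were 74.0 ± 106, 24.7 ± 20.4, 24.5 ± 6.49 and 72.1 ± 54.1 CPM over stages 1 to 4 in turn (SD, n = 4 gilts each) and 21.6 ± 31.6 CPM at stage 5 (SD, n = 3 gilts), in the order 1, 4, 2, 3 and 5 with neighbours closer than the larger of their SDs. Leaving out the granulosa-rich libraries gave ZAR1 medians of 16.9, 14.3, 20.4, 35.3 and 4.89 CPM at stages 1 to 5.

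Whether the members changed with follicle growth was tested on counts summed per gilt and stage (19 sums), with gilt in the model. No member passed the threshold, an adjusted p under 0.05, for stage 5 against stage 1 or any other stage comparison. In stage 5 against stage 1 by edgeR's quasi-likelihood test, 0% of the 15637 genes tested were called, with 840 at an unadjusted p under 0.05. DESeq2 called 364 genes and limma on mean log2(CPM + 1) called 0 there, and neither called a member. OOEP averaged 32.1 CPM at stage 5 in gilt 201 against 14.2 CPM at stage 1, 114 CPM against 563 CPM in gilt 205, and 5.43 CPM against 28.6 CPM in gilt 803. It was thus higher at stage 5 in gilt 201 and lower in gilts 205 and 803. On the scale of the fit, the summed counts with TMM factors, OOEP was at 91.9 against 22.3 CPM in gilt 201. There it was at 125 against 157 CPM in gilt 205 and at 1.47 against 45.0 CPM in gilt 803. Its fitted log2 difference was -0.77 ± 0.94 (SE), with a 95% interval of -2.70 to 1.16 and an adjusted p of 0.996 by edgeR. Without gilt 803 this difference was 0.52, so its direction depended on that animal. It was -0.05 ± 0.85 without the granulosa-rich libraries.

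PADI6 at stage 5 averaged 36.5 CPM in gilt 201 against 45.8 CPM at stage 1, 292 CPM against 2864 CPM in gilt 205, and 118 CPM against 561 CPM in gilt 803. The stage 1 mean of gilt 803 rests on 4 oocytes at 67.0, 1831, 148 and 196 CPM, and the one at 1831 CPM is a granulosa-rich library of 220085 counts in all. Without the granulosa-rich libraries gilt 803 had 77.4 CPM in 1 oocyte at stage 5, against a mean of 172 CPM in 2 oocytes at stage 1. As CPM the PADI6 mean was lower at stage 5 in all 3 gilts. On the scale of the fit, the summed counts with TMM factors, PADI6 was higher at stage 5 in gilt 201, at 107 CPM against 67.2 CPM. On that scale it was lower at stage 5 in gilt 205 (313 against 800 CPM) and in gilt 803 (104 against 159 CPM). The fitted log2 difference of PADI6 was -0.50 ± 0.72 (95% interval -1.98 to 0.98, edgeR adjusted p = 0.996). ZAR1 at stage 5 averaged 3.67 CPM in gilt 201 against 8.48 CPM at stage 1, 58.1 CPM against 232 CPM in gilt 205, and 3.07 CPM against 15.7 CPM in gilt 803. It was lower in all 3 gilts, and also on the scale of the fit (11.1 against 13.2, 58.1 against 64.7 and 2.59 against 19.4 CPM). Its fitted log2 difference was -0.88 ± 0.95 (95% interval -2.84 to 1.07, edgeR adjusted p = 0.996). The differences were -0.66 ± 0.79 for PADI6 and -0.75 ± 0.99 for ZAR1 without the granulosa-rich libraries. The intervals of the 3 genes with all libraries each held 0, and all of them held the range from -1.98 to 0.98. The median over all tested genes was -0.27.

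No member was called between neighbouring stages either. For stage 2 against stage 1 the fitted log2 differences were 0.89 ± 0.82 for OOEP, 0.47 ± 0.70 for PADI6 and -0.08 ± 0.86 for ZAR1. For stage 3 against stage 2 they were -0.27 ± 0.82, -0.47 ± 0.67 and 0.02 ± 0.86 in the same gene order. For stage 4 against stage 3 they were -0.11 ± 0.83, 0.12 ± 0.67 and 0.85 ± 0.84. For stage 5 against stage 4 they were -1.28 ± 0.94, -0.62 ± 0.76 and -1.67 ± 1.02. All 3 fitted differences were below 0 there, and the ZAR1 interval ran from -3.76 to 0.41 (edgeR adjusted p = 1). In each of these comparisons 0% of genes were called, with 1034, 728, 646 and 466 at an unadjusted p under 0.05, none of them a member. DESeq2 called 413, 317, 263 and 212 genes, and limma 0 in each, again without a member. The F test among all stages called 0% of genes by edgeR, with 840 at an unadjusted p under 0.05, 47 by DESeq2 and 0 by limma. A linear trend over stages called 0.0128% of genes, which were 2 genes and no member. The fitted slopes were -0.15 ± 0.23 per stage for OOEP, -0.13 ± 0.16 for PADI6 and 0.03 ± 0.20 for ZAR1 on the log2 scale. Across 13 alternative settings and 7 stage comparisons no member was called, and the lowest adjusted p was 0.559.

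**Figure D2:**
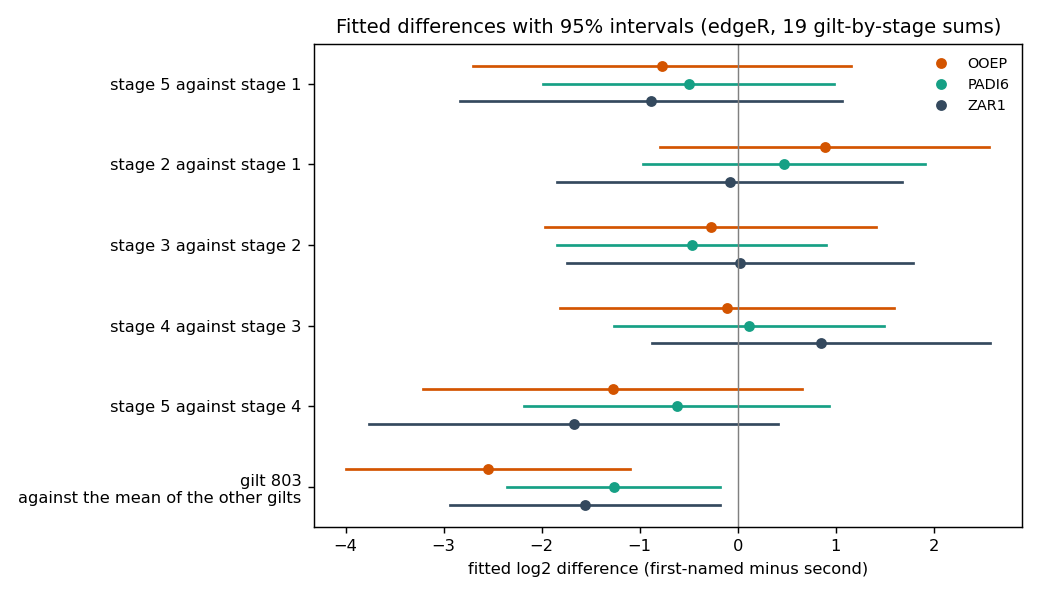
Fitted log2 differences (x axis, first-named group minus second) of OOEP, PADI6 and ZAR1 in each comparison (y axis), with lines for 95% intervals from edgeR on 19 gilt-by-stage sums. Every interval of the stage comparisons crosses 0, and for gilt 803 the intervals lie below 0, from -3.99 to -1.09 for OOEP.

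Oocytes of the same gilt and stage differed in all 3 genes. On the log2(CPM + 1) scale, the SD within gilt and stage was 2.49 for OOEP, 1.66 for PADI6 and 2.21 for ZAR1 (55 oocytes). The SD of the 5 stage means was 0.77, 0.58 and 0.92, and the SD of the 4 gilt means was 1.64, 0.99 and 0.81, in the same gene order. Stage and gilt means average 9 to 20 oocytes, which alone makes their SD smaller than that of single oocytes, so these SDs are not compared. Without the granulosa-rich libraries the SDs within gilt and stage were 2.14, 1.60 and 2.07.

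The same oocytes were high for all 3 genes. Among the 5 highest oocytes for each gene, 4 were shared by all 3 genes. These 4 were oocyte 3 and oocyte 2 of gilt 801 at stage 4, oocyte 4 of gilt 801 at stage 2 and the single stage 1 oocyte of gilt 205. Oocyte 3 of gilt 801 at stage 4 had 1589 CPM OOEP, 2776 CPM PADI6 and 275 CPM ZAR1, from 60834, 106292 and 10514 counts. Their mitochondrially encoded shares were 3.62%, 4.73%, 4.68% and 18.2%, below the series median of 71.0%. None of the 4 was granulosa-rich. The highest ZAR1 level, 320 CPM, was in a granulosa-rich library, oocyte 2 of gilt 803 at stage 4, with 241.5 CPM OOEP and 803 CPM PADI6.

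Across 55 oocytes the Spearman correlation between members was 0.53 for OOEP and PADI6, 0.68 for OOEP and ZAR1 and 0.58 for PADI6 and ZAR1. Without the granulosa-rich libraries it was 0.73, 0.67 and 0.68 over 40 oocytes. These are descriptions, since oocytes of a gilt share an animal and values in a library share depth and composition. As CPM of non-mitochondrial counts, the 3 correlations over those 40 oocytes were 0.68, 0.41 and 0.56. Over the same 40 oocytes the members' CPM correlated with the mitochondrial share at -0.55 for OOEP, -0.70 for PADI6 and -0.58 for ZAR1. With ZP3, an egg coat gene, the correlations were 0.26, 0.29 and 0.21, and with GDF9, an oocyte growth factor, they were 0.61, 0.66 and 0.50. The members thus ran closer to GDF9 than to ZP3 by this measure.

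**Figure D3:**
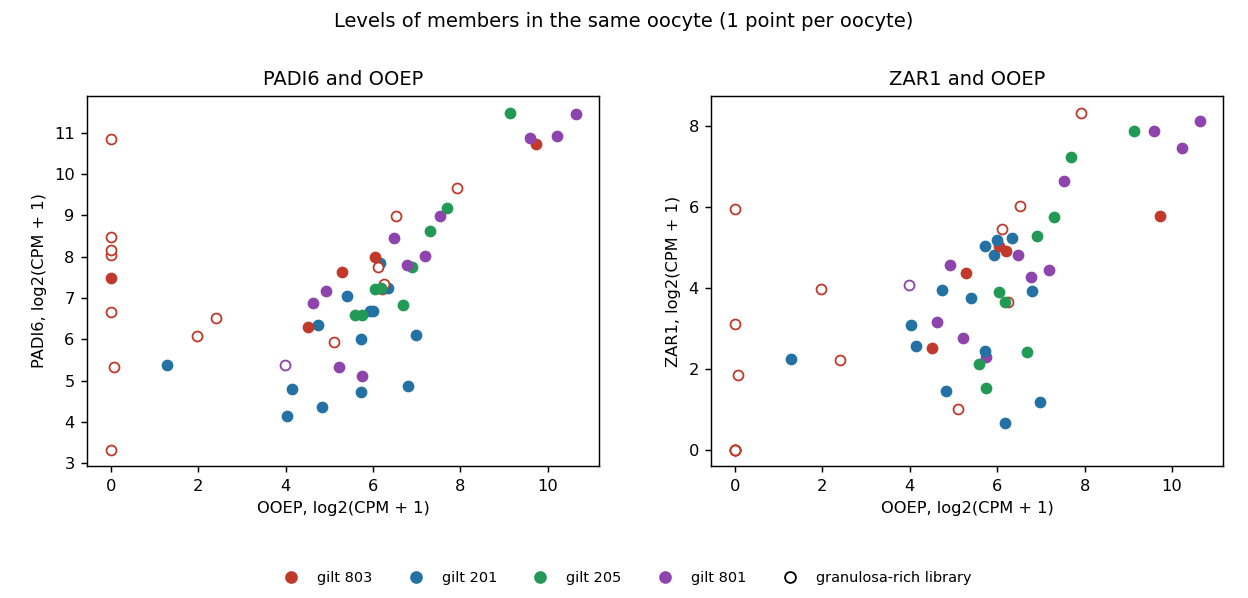
PADI6 (left) and ZAR1 (right) against OOEP in the same oocyte, both axes log2(CPM + 1), 1 point per oocyte, coloured by gilt, open where the library was granulosa-rich. The points rise together, with Spearman correlations of 0.53 and 0.68 over 55 oocytes, and 7 libraries of gilt 803 lie at 0 for OOEP while PADI6 is counted in each.

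The mitochondrial share was read beside these levels because it takes up most counts in many oocytes. Among the 40 libraries that were not granulosa-rich, 5 had a mitochondrial share under 10%, 5 had 10% to 60% and 30 had 60% or more. The median OOEP level was 842.5, 88.6 and 61.4 CPM in these classes, the median PADI6 level 1872, 351 and 107 CPM and the median ZAR1 level 173, 26.8 and 13.1 CPM. As CPM of non-mitochondrial counts the medians were 875, 165 and 395 for OOEP, 1965, 655 and 706 for PADI6 and 182, 50.0 and 79.3 for ZAR1. On this scale the first class was still the highest for each gene, while the order of the other classes turned round. The part of the mitochondrial share in the members' levels was not tested.

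With all libraries OOEP had its lowest median in gilt 803, and the difference from the other gilts depended on the libraries kept and on the scaling. OOEP in gilt 803 had a lowest, median and highest level of 0, 12.99 and 842.5 CPM over 20 oocytes, against 1.46, 65.1 and 1589 CPM over 35 oocytes of the other gilts. By animal the medians were 12.99 CPM in gilt 803, and 51.7, 101 and 98.5 CPM in gilts 201, 205 and 801. The ranges overlapped, with gilt 803 lowest by its median. The fitted log2 difference of gilt 803 from the mean of the other gilts was -2.54 ± 0.70 (SE, 95% interval -3.99 to -1.09, edgeR adjusted p = 0.0341), so 1 of 3 members was called. This p compares the 5 stage sums of 1 animal with those of the others and does not measure spread between animals. Of all tested genes 4.68% were called in this comparison, 688 higher and 44 lower, with a median log2 difference of 0.11. The comparison was chosen with gilt 803 known to stand apart. Without the granulosa-rich libraries the OOEP difference was -0.80 and was not called (edgeR adjusted p = 0.780), and 4 genes were called in all. In that set OOEP had a median of 51.8 CPM over 6 oocytes of gilt 803 and 68.1 CPM over 34 oocytes of the other gilts. By animal the medians of the other gilts there were 51.7 CPM in gilt 201, 101 CPM in gilt 205 and 108 CPM in gilt 801. Gilt 803 was thus no longer the lowest. The call was also lost without gilt 205 (-2.48, edgeR adjusted p = 0.207), without gilt 801 (-2.59, adjusted p = 0.0592) and with library totals in place of TMM factors (-1.69, adjusted p = 0.179).

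PADI6 had a lowest, median and highest level of 9.07, 188 and 1831 CPM in gilt 803, against 16.7, 116 and 2864 CPM in the other gilts. Its fitted log2 difference was -1.27 ± 0.53 (edgeR adjusted p = 0.197), opposite in sign to the difference of the medians, and the cause was not tested. By limma on the mean log2(CPM + 1) the PADI6 difference was 0.20 (adjusted p = 0.935). ZAR1 had 0, 9.56 and 320 CPM in gilt 803, against 0.589, 14.3 and 275 CPM in the other gilts. Its fitted log2 difference was -1.56 ± 0.67 (edgeR adjusted p = 0.213). PADI6 and ZAR1 were thus not called. Leaving out the granulosa-rich libraries gave fitted differences of -0.33 ± 0.60 for PADI6 (edgeR adjusted p = 0.936) and -1.005 ± 0.76 for ZAR1 (adjusted p = 0.751). The medians in that set were 188 CPM PADI6 in gilt 803 against 124 CPM in the other gilts, and 24.1 CPM ZAR1 in gilt 803 against 14.2 CPM. The ZAR1 median of gilt 803 was thus below that of the other gilts with all libraries and above it without that class, while its fitted difference was below 0 in both. An F test among all 4 gilts called 2.17% of genes and no member, with edgeR adjusted p of 0.198 for OOEP, 0.354 for PADI6 and 0.564 for ZAR1, and 2 members at an unadjusted p under 0.05. DESeq2 and limma called no member in that F test either.

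Of the 5 oocyte markers, 4 were called lower in gilt 803, again 1 animal with its 5 stage sums, and their differences from the members' were not tested. The fitted log2 differences from the other gilts were -4.64 for ZP2, -4.30 for ZP3, -4.41 for ZP4 and -3.38 for GDF9 (edgeR adjusted p of 0.0155, 0.00859, 0.00805 and 0.00730), and -1.51 for BMP15 (adjusted p = 0.362). With the granulosa-rich libraries left out ZP3 was at -2.17 (edgeR adjusted p = 0.698). That class is set by the counts of these 5 genes against granulosa markers and lies mostly in gilt 803, so this change is partly built in. Scaled to the summed counts of these 5 genes in place of TMM, the difference of gilt 803 was 1.71 for OOEP (edgeR adjusted p = 0.133), 3.52 for PADI6 (adjusted p = 0.00164) and 3.16 for ZAR1 (adjusted p = 0.00849). The median of all genes moved to 4.93 on that scale, so all 3 members lay below it. PADI6 counts had a median of 30.3% of the summed oocyte marker counts in gilt 803, against 0.723% in the other gilts. For OOEP this share was 0.421% in gilt 803 and 0.352% in the other gilts. In libraries that were not granulosa-rich the PADI6 share was 2.11% in gilt 803 and 0.712% in the other gilts. The lower share in gilt 803 is again partly built into the class, which rests on the same marker counts. The sign of the fitted difference in gilt 803 therefore depended on the scale for all 3 members. They lay below the median of all genes with TMM and with this scaling. A change of scaling moves all genes by much the same amount, so the second reading is nearly built in and adds no separate support.

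**Figure D4:**
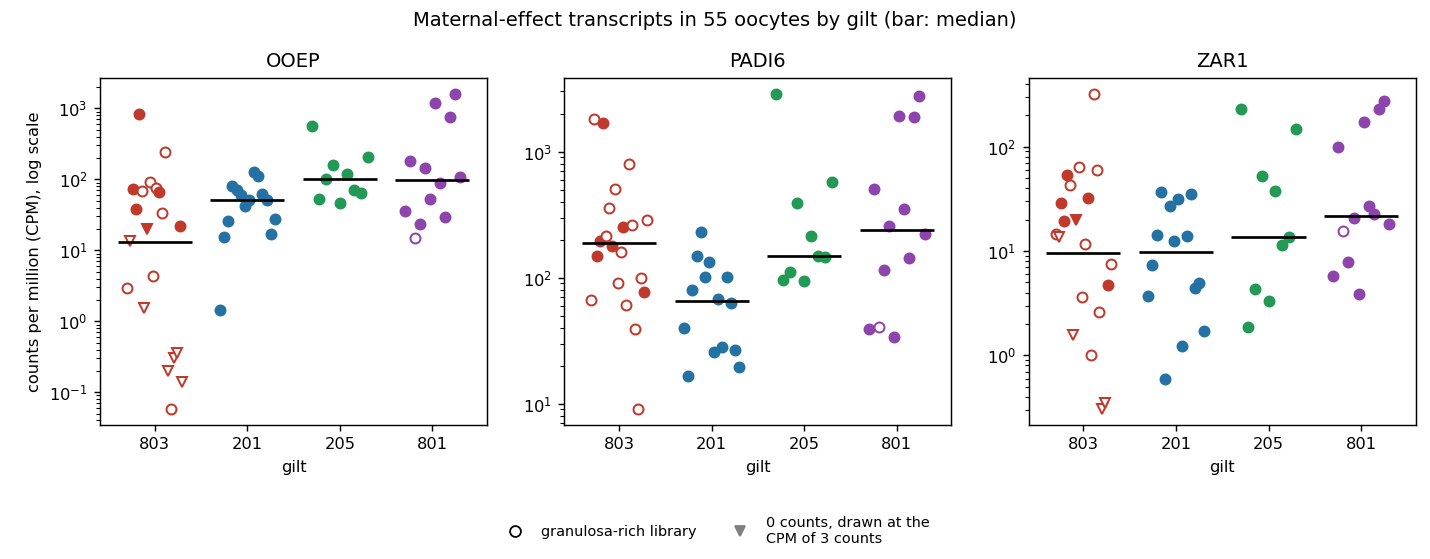
CPM of OOEP, PADI6 and ZAR1 in each oocyte (log y axis) by gilt (x axis, gilt 803 on the left), with a bar at the gilt median, open symbols for granulosa-rich libraries and triangles for 0 counts, drawn at the CPM of 3 counts. The OOEP median of gilt 803 is 12.99 CPM, below those of gilts 201, 205 and 801, while its PADI6 median of 188 CPM lies within theirs.

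OOEP was at 0 counts in 7 libraries, all of gilt 803, and 6 of these were granulosa-rich. A count of 3 in these libraries would be 0.138 to 19.9 CPM, which is the level that a count of 0 allows and covers counting error only. ZAR1 was at 0 in 5 libraries, which were also among the 7, and PADI6 was at 9.07 to 1831 CPM in those 5. Depth differed among them. In oocyte 4 of gilt 803 at stage 5, with 21707228 counts in all, OOEP had 0 counts beside 6220 for PADI6 and 164 for ZAR1. In oocyte 3 of gilt 803 at stage 4, with 14999956 counts, OOEP had 0 beside 3908 for PADI6 and 901 for ZAR1. In oocyte 2 of gilt 803 at stage 1, with 220085 counts, OOEP and ZAR1 had 0 beside 403 for PADI6. The lowest OOEP level in the other gilts was 1.46 CPM, above the floors of 0.138 and 0.200 CPM of the first 2 of these libraries. These 2 libraries held 1003 and 14291 CPM of granulosa markers beside 952 and 855 CPM of oocyte markers, and the part of these in the missing OOEP counts was not tested.

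The make-up of the 3 transcripts was read by gilt, without a test. Of the summed counts of the 3 members, OOEP made up a median of 9.03% in gilt 803, against 33.2% in gilt 201, 30.8% in gilt 205 and 28.9% in gilt 801. PADI6 made up 78.3% in gilt 803, against 53.4%, 64.2% and 62.2% in the same gilts. ZAR1 made up 4.61% in gilt 803, against 9.66%, 6.09% and 5.83%. These shares are of counts and not of molecules, since longer transcripts give more counts. In libraries that were not granulosa-rich OOEP made up 19.8% in gilt 803 (6 oocytes), against 33.2%, 30.8% and 31.2% in gilts 201, 205 and 801. PADI6 made up 73.4% there, against 53.4%, 64.2% and 63.6%. ZAR1 made up 6.11%, against 9.66%, 6.09% and 5.75%, so its share in gilt 803 was no longer the lowest. Across stages 1 to 5 the OOEP share had medians of 20.9%, 30.9%, 26.0%, 31.2% and 25.4%, and the PADI6 medians lay between 63.7% and 66.8%. Without the granulosa-rich libraries the OOEP medians were 22.4%, 32.2%, 36.3%, 31.5% and 30.8%. The PADI6 medians in that set were 65.4%, 62.1%, 58.3%, 63.6% and 62.0%. In single oocytes of all libraries the PADI6 share ran from 18.4% to 100%.

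**Figure D5:**
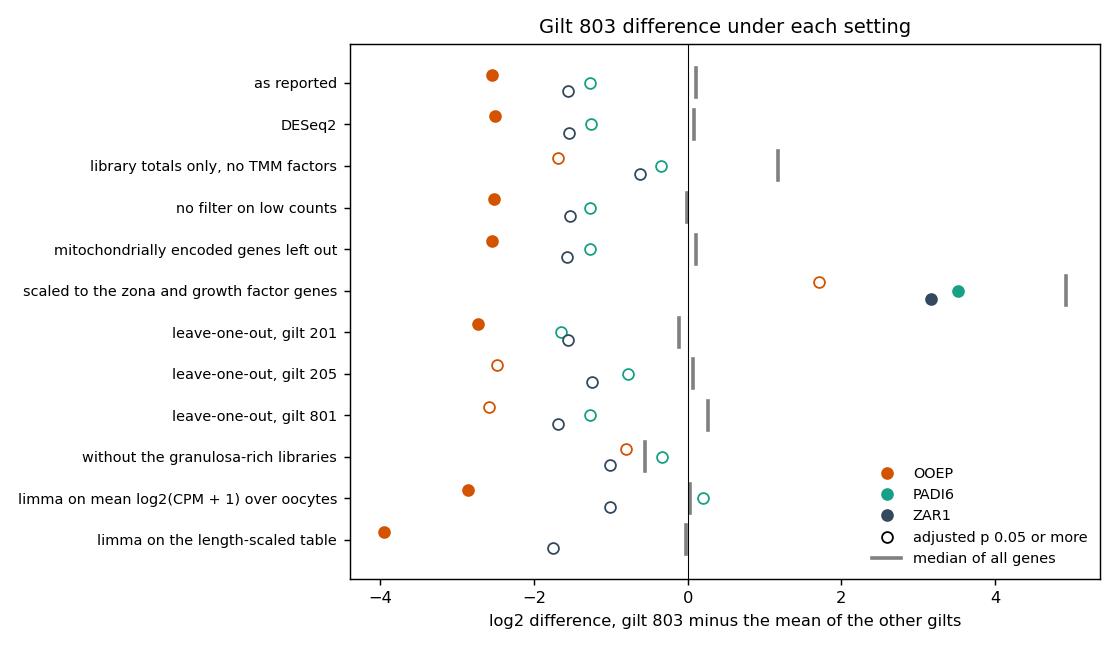
Log2 difference of gilt 803 from the mean of the other gilts (x axis) for OOEP, PADI6 and ZAR1 under each setting (y axis), filled where the adjusted p was under 0.05, with a grey bar at the median of all genes. OOEP is at -2.54 as reported, -0.80 without the granulosa-rich libraries and 1.71 when scaled to the zona and growth factor genes.

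The levels of OOEP and ZAR1 were set against each other per length, with the deposited length-scaled table, which holds OOEP and ZAR1 but gave no PADI6. Its ratio of OOEP to ZAR1 does not follow that of the counts by a fixed factor from oocyte to oocyte. The values below are therefore not the counts above put per length. Ranked within each oocyte among 23498 genes, OOEP had a median rank of 87 and a best rank of 15. ZAR1 had a median rank of 1488 and a best rank of 170. On the same table ZP3 had a median rank of 19 and GDF9 of 66. With the granulosa-rich libraries left out the median ranks were 65 for OOEP, 663 for ZAR1, 17 for ZP3 and 42.5 for GDF9. OOEP was higher than ZAR1 per length in 45 of 48 oocytes in which both were above 0, with a median ratio of 7.33, and in 38 of 39 without the granulosa-rich libraries, with a median ratio of 8.26. The oocytes left out include oocyte 3 at stage 4 and oocyte 4 at stage 5 of gilt 803, where ZAR1 was counted and OOEP was not. No oocyte was left out with OOEP counted and ZAR1 at 0. Set against GDF9 in the same oocyte, OOEP was at a median of 35.7% and ZAR1 at 6.75% per length, and at 36.5% and 5.43% without the granulosa-rich libraries.

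The genes whose pattern over 55 oocytes was most like the summed CPM of the members, among 6266 genes with a symbol and a mean of at least 10 CPM, were CNNM2, FBXO10, PEX5L, STX3 and KPNA7. Their Spearman correlations were 0.84, 0.81, 0.81, 0.80 and 0.79, and without the granulosa-rich libraries 0.88, 0.82, 0.85, 0.77 and 0.87. CNNM2 encodes a magnesium transport protein of the membrane, FBXO10 an F-box protein, STX3 a syntaxin of vesicle fusion and KPNA7 a nuclear import receptor of oocytes and early embryos. PADI6 gives most of the summed counts, so this order is mainly that of PADI6, whose own closest gene was CNNM2 at 0.82. The closest gene to OOEP was ZSWIM3 at 0.83, and to ZAR1 it was FARP1, which encodes a FERM-domain exchange factor for small GTPases, at 0.84. ZAR1 ranked 64 of the 6266 genes by likeness to OOEP, and PADI6 ranked 753.

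Neighbouring genes were named from the order of genes in the RefSeq annotation of Sscrofa11.1, where none of them overlaps a member. DPPA5, a KH-domain gene near OOEP, had a median of 229.8 CPM and a Spearman correlation of 0.60 with OOEP. PADI3 and PADI4, deiminase genes beside PADI6, both had a median of 0 CPM, with highest levels of 10.7 and 70.0 CPM. RCC2 on the other side of PADI6 had a median of 31.8 CPM and a correlation of 0.52 with it. SLC10A4 and FRYL, on either side of ZAR1, had medians of 0 and 1.86 CPM. Reads shared between PADI6 and its family cannot be told apart from these counts, since the sources used here do not give the strand and multi-mapping settings.

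Other maternal-effect genes were read from a list of 40, of which 29 were matched and 28 tested. For stage 5 against stage 1, 0 of 28 were called in either direction, with 17 above 0 and 11 below, a median of 0.23 and -0.27 over all genes. That balance turned to 8 above 0 and 20 below with library totals in place of TMM factors, and likewise without the granulosa-rich libraries. The 6 with the highest mean CPM, which is not per length and so gives no order of transcript levels, were KPNA7 at 655 CPM, H1-8, the oocyte linker histone, at 529 CPM, BTG4, an adaptor of maternal mRNA decay, at 401 CPM, WEE2, a kinase that keeps meiosis arrested, at 350.1 CPM, NLRP9 at 277 CPM and UCHL1, a deubiquitinating enzyme, at 244 CPM. Their fitted log2 differences at stage 5 against stage 1 were -0.55, 0.36, 0.44, 1.08, -0.02 and -0.57 in this order, with edgeR adjusted p of 0.960 or more. In gilt 803 against the other gilts they were -1.46, -1.35, -1.17, -0.52, -0.88 and -1.29, and none was called (edgeR adjusted p of 0.132 or more). Over the 28 genes, 1 was called higher in gilt 803 and 0 lower, beside 4.68% of all genes, with a median of -0.65 beside 0.11 over all genes. These counts moved with the setting. Scaled to the zona and growth factor genes 24 were called higher and 0 lower, with a median of 3.80. On that scale 11376 genes were called in all, and the median of all genes lay above that of the list. With library totals 4 were called higher and 0 lower, with a median of 0.35, beside 2138 genes called in all. DESeq2 called 2 higher and 4 lower, the fit without gilt 201 called 1 higher and 3 lower, and the fit without gilt 205 called none. Over all genes these fits called 2479, 799 and 120 in turn. The called gene was GCLM, the modifier subunit of the enzyme that limits glutathione synthesis, at 3.27 ± 0.67 (edgeR adjusted p = 0.00419), a p that again rests on the 5 stage sums of 1 animal. Its call was lost without gilt 205 (adjusted p = 0.0555) and without the granulosa-rich libraries, where GCLM was at 1.69 and none of the 28 was called. The differences between these genes and the members were not tested.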

How the data were processed

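The deposited count table holds raw whole-number counts per Ensembl gene ID, 1 oocyte per column, not normalized by the authors. The submitters' processing notes name StringTie 1.2.2, featureCounts, HISAT2 2.1.0 and Trim Galore 0.4.3, with no roles; genome build, annotation, strand and multi-mapping settings: not given in the sources used here. The authors also deposited what they call TPM, yet column sums lie between 40073 and 2990163. That table is treated as length-scaled values of unstated scale, used for ranks and ratios within an oocyte and as an alternative measure. Its last line is incomplete and 2382 gene IDs, PADI6 among them, are not in it.

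CPM is a gene's share of the counts of its library, on a fixed scale. For tests, counts were summed per gilt and stage (19 sums) and fitted with edgeR 4.0.16 (R 4.3.3) by its two-sided quasi-likelihood test, after TMM scaling and filterByExpr with stage as the group. The model held stage and gilt, with Benjamini-Hochberg adjustment over 15637 genes and a threshold of 0.05. The TMM factors of the sums ran from 0.270 to 3.59. The common biological coefficient of variation was 1.24. The procedure was also run on simulated counts. These held no differences between gilts or in library make-up, unlike the data here, so no conclusion is drawn from them. Gilt is kept as a replicate block because same-numbered sums come from the same animal. Deviations from stage means correlated within a gilt at a mean of 0.217 (gilt 205), 0.145 (gilt 801), 0.192 (gilt 803) and -0.00138 (gilt 201), against -0.0421 between gilts. Alternatives used DESeq2 1.42.0, limma 3.58.1 on log2 values with a pseudocount of 1, other scalings and filters, and left out gilts or granulosa-rich libraries. A library was called granulosa-rich where the summed counts of the granulosa and cumulus markers exceeded those of ZP2, ZP3, ZP4, GDF9 and BMP15. Depth ran from 151104 to 38282850 counts, and limits at 0 counts are the CPM of 3 counts. Such limits cover counting error only, since PCR duplicates cannot be recognised here.

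The genes described, the gene lists and the gilt comparison were chosen with earlier results of these data known. Named in the text are all 8 genes of the set, the 6 other maternal-effect genes with the highest mean CPM and any of that list that was called, and the genes closest to the members by Spearman correlation (the top 5 for their sum and the top 1 for each). The oocyte markers and neighbouring genes are named as checks. DNA methylation, somatic cells and culture experiments of the study are not analysed here.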

Additional observations from a re-analysis of the deposited data

Results flagged for a closer look

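The levels below lay far from the others of their group of 4 or 5, by a test of the gap to the nearest value against the whole range. Of 48 groups tested 18 values were picked out, and groups of the same oocytes are not independent. For normally distributed values the test would pick out about 1 in 20 groups. It was run on CPM without a log scale, which is skewed to high values, so the 18 cannot be set against that rate.

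Among gilts of a stage, OOEP was high in gilt 205 at stage 1 (563 CPM) and in gilt 801 at stage 4 (623 CPM). PADI6 was high in gilt 801 at stage 4 (1253 CPM). ZAR1 was high in gilt 205 at stage 1 (232 CPM) and low in gilt 201 at stage 3 (14.9 CPM). Among stages of a gilt, stage 1 stood out in gilt 205 for OOEP (563 CPM), PADI6 (2864 CPM) and ZAR1 (232 CPM), all from a single oocyte. In gilt 803, stage 2 stood out for OOEP (228 CPM) and stage 4 for ZAR1 (95.9 CPM).

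Among oocytes of the same gilt and stage, oocyte 4 of gilt 801 at stage 2 was high for OOEP (1190 CPM), PADI6 (1916 CPM) and ZAR1 (173 CPM). Its mitochondrial share was 4.68%, against 82.8% to 90.2% in the other 3 oocytes of that group. In gilt 803, oocyte 1 at stage 2 was high for OOEP (842.5 CPM) and PADI6 (1686 CPM), and oocyte 2 at stage 1 for PADI6 (1831 CPM). Oocyte 2 of gilt 803 at stage 4 (241.5 CPM) and oocyte 3 at stage 5 (21.7 CPM) were high for OOEP, the other 3 oocytes at stage 5 being at 0.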

How the results depend on the processing

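No member was called in any of the 7 stage comparisons under any setting, and none of those counts moved. For gilt 803 against the other gilts 1 member, OOEP, was called. That count was 0 with library totals in place of TMM factors, 2 when scaled to the zona and growth factor genes, 0 without the granulosa-rich libraries, and 0 to 1 when each of the other gilts was left out. Over all genes 732 were called as reported, 2138 with library totals, 11376 with the zona and growth factor scaling and 4 without the granulosa-rich libraries. Without gilt 205 the OOEP difference was -2.48 (adjusted p = 0.207) and without gilt 801 it was -2.59 (adjusted p = 0.0592). With library totals it was -1.69 (adjusted p = 0.179), while the median of all genes moved to 1.17. The F test among gilts called 0 members, against 1 with no filter on low counts and 2 when scaled to the zona and growth factor genes. Over all genes these fits called 339, 935 and 9456 in turn.

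Under the zona and growth factor scaling the gilt 803 difference changed sign, to 1.71 for OOEP, 3.52 for PADI6 and 3.16 for ZAR1. The scaling genes were themselves fitted lower in gilt 803, which moves most genes up on that scale. The members lay below the median of all genes there too, which is nearly built in, as a change of scaling moves all genes much alike. For PADI6 the gilt 803 difference also changed sign, to 0.20, by limma on mean log2(CPM + 1). With no replicate block, that is with gilt left out of the model, the OOEP difference of stage 5 from stage 1 was 0.00504 and the OOEP slope 0.0125. With each gilt left out in turn, that OOEP difference ran from -1.42 to 0.52 and the slope from -0.27 to 0.11, positive without gilt 803. The ZAR1 slope ran from -0.0055 to 0.11 and was negative without gilt 801. It also reversed with library totals (-0.089), without the granulosa-rich libraries (-0.035), by limma on CPM (-0.10) and by limma on the length-scaled table (-0.027). No stage value passed the threshold on either side, and the causes were not tested. The block changed no call on a stage.

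The depth of the libraries limits what a 0 means, since 3 counts are up to 19.9 CPM in the shallowest. The 95% intervals of stage 5 against stage 1 all held log2 differences from -1.98 to 0.98, so changes within that range were not excluded. Stage 5 has 3 gilts.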
